A study of Mus musculus with 4 samples.

Results

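Mouse embryonic fibroblasts (MEFs) are mesenchymal cells, and 10 genes for mesenchymal and fibroblast transcription factors were followed in them: Twist1, Twist2, Prrx1, Prrx2, Snai1, Zeb1, Tcf21, Osr1, Tbx15 and Meox2. They were taken by name, as all of their exons found in the deposited table of exon levels. This gave 50 of the 226463 exons used, and 10 of 22835 genes. RNA-seq had been done to ask how far induced Mitf, the master regulator of melanocytes, moves MEFs toward the melanocyte lineage. Of the 4 conditions of the study, the 3 fibroblast libraries were analysed here, with 1 library per condition and therefore no replicate check. The primary melanocytes (PMel) were not analysed here.

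The library called MEF came from wild-type cells at passage 3. Dox (-) and Dox (+) were Mitf knock-in MEFs at passage 5, left untreated or given doxycycline (Dox) for 6 days. Both knock-in cultures carry the M2rtTA transactivator in the ROSA26 locus and a Dox-responsive M-Mitf, the melanocyte isoform, placed downstream of Col1a1, together with an mCherry transgene. They were made from chimeric embryos obtained with a single targeted embryonic stem cell clone, so host cells may be present as far as the selection of transgenic cells left them. MEF differed from the knock-in cultures in genotype, passage and culture, and these cannot be told apart.

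TWIST1 and TWIST2 are basic helix-loop-helix proteins, PRRX1 and PRRX2 paired-related homeobox proteins, and SNAI1 and ZEB1 zinc finger repressors that bind E-boxes, 6-base sites of the form CANNTG. SNAI1, ZEB1 and the TWIST proteins are best known for driving the epithelial-mesenchymal transition (EMT), in which genes such as Cdh1 are silenced. TCF21, OSR1, TBX15 and MEOX2 mark and specify subsets of mesenchyme by tissue or body position. In the melanocyte lineage, SNAI2 and ZEB2 are the family members usually found, while ZEB1 and TWIST1 are associated with dedifferentiated melanoma cells.

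Promoters of 3 members are shown because they bear on the largest difference and on the motifs found. The sequences are the 250 bases before the start of the gene, taken from RefSeq on GRCm38.p6, and 7 of the 10 genes had an entry. Twist2 (chr1:91801211-91801460, plus strand) is the member above 10 RPKM (a level explained with the values) that differed most between Dox (-) and MEF. Snai1 (chr2:167537945-167538194, plus strand) and Meox2 (chr12:37108290-37108539, plus strand) are the only members of the 7 that hold a searched motif, which is in capitals.
Twist2: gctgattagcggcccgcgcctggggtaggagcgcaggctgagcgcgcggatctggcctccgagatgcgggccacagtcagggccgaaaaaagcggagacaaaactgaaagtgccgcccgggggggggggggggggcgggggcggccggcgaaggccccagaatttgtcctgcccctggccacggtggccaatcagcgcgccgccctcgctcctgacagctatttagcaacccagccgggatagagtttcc
Snai1: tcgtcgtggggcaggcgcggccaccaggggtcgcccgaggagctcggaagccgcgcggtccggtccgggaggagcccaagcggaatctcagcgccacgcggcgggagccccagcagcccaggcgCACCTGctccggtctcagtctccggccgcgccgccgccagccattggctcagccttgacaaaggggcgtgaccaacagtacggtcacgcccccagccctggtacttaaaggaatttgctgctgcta
Meox2: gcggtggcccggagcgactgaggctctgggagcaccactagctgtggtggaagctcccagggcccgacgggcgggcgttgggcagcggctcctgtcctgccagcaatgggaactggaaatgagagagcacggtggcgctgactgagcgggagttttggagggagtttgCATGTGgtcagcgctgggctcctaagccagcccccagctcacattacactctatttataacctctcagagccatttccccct

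The motifs searched, on both strands, were CACGTG and CATGTG (or CACATG), which MITF is known to bind, and CAGGTG (or CACCTG), the E-box preferred by SNAI and ZEB proteins. Snai1 held CACCTG, beginning 126 bases before the start, and Meox2 held CATGTG, beginning 82 bases before it. Of 32851 RefSeq promoters, 6.02% held CACGTG, 12.3% held CATGTG or CACATG and 17.2% held CAGGTG or CACCTG in a window of the same length. A match is a description of letters and not a bound site.

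Also shown are 2 neighbouring short exons of Prrx1 with its highest levels, the 39-base exon being the one that sets the level of the gene by the study's measure. They lie on the minus strand of chromosome 1 in mm10, from 163289179 to 163289224 and from 163287865 to 163287903, and belong only to a transcript that GENCODE lists as non-coding.
Prrx1 exon of 46 bases: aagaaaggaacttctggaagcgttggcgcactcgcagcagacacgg
Prrx1 exon of 39 bases: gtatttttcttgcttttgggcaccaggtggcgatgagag

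Levels are in RPKM, read counts scaled to exon length and to library depth, and the level of a gene is that of its highest exon in each library, as in the study's methods. Reads were recovered from the RPKM values at depths of 45000000 reads for MEF and Dox (-) and 44000000 for Dox (+), and 96.9% to 97.2% of low values came out whole within 0.02 reads. Mitf was read to check the labels, with 1.52 RPKM in MEF, 30.8 in Dox (-) and 1544 in Dox (+). All 14 fibroblast markers tested exceeded 10 RPKM in both knock-in libraries and 13 did in MEF, with Vim, the mesenchymal intermediate filament, at 24417 RPKM in MEF, 12302 in Dox (-) and 24345 in Dox (+). The 9 macrophage markers summed to 58.3 RPKM in MEF, 17020 in Dox (-) and 621 in Dox (+), so that Dox (-) stands apart. The 10 melanocyte markers, Mitf included, summed to 5.95, 45.6 and 1809 RPKM in the same order, and the 5 endothelial markers to 9.37, 15.1 and 4.94. Induced Mitf itself made up 1544 of the 1809 RPKM. In Dox (+), 4 of the 10 melanocyte markers exceeded 10 RPKM, and Sox10 was lower there, at 1.66 RPKM against 6.69 in Dox (-). The endothelial, skeletal muscle and keratinocyte markers had at most 1 gene of each list above 10 RPKM in any library. Des, an intermediate filament of muscle, had 11.6, 571 and 1805 RPKM and Krt14, a keratin, 32.8, 2.12 and 26.9, while Myod1 and Myog, which define skeletal muscle, were at or near 0. In such bulk samples fewer cells of a type and less RNA per cell cannot be told apart.

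Between Dox (+) and Dox (-), 8 members were above 10 RPKM in both libraries, from 15.0 RPKM (Osr1) to 474 (Prrx1) in Dox (+), while Tcf21 and Meox2 were below it in both. The thresholds of 10 RPKM and 4-fold are those of the study, which set them on exons, the 4-fold cut between MEFs and melanocytes. Here they were set on gene levels. A gene was tested with over 10 RPKM in either library compared and called with a ratio over 4-fold. Between Dox (+) and Dox (-), 8 of the 10 members were tested and 0 were called, in either direction. Among all 13307 genes tested, 1.64% were higher in Dox (+) by this rule and 5.41% were lower, so that for 8 genes a count of 0 does not set the members apart. At 2-fold the number of members called was again 0 in both directions, against 10.8% of all genes higher and 11.1% lower. For Twist2 this depends on the measure, since summed over exons it had 32.3 RPKM in Dox (-) and 67.5 in Dox (+), past 2-fold. The median log2 fold change of the 10 members, with a pseudocount of 1 RPKM, was -0.03, and that of all 22835 genes was 0.01. Over the genes above 10 RPKM the median was 0.23, so that a ratio slightly over 1 is the usual one between these libraries. Over the 8 members above 10 RPKM it was 0.08.

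**Figure D1:**
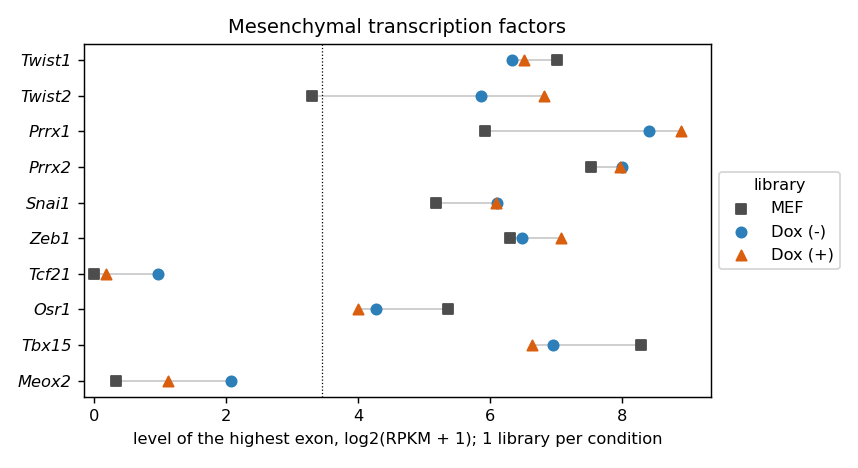
Level of the highest exon of each member, as log2(RPKM + 1), in the MEF, Dox (-) and Dox (+) libraries, 1 point per library; the dotted line is at 10 RPKM. Twist2 and Prrx1 are far lower in MEF than in both knock-in libraries, Tbx15 and Osr1 are highest in MEF, and the Dox (-) and Dox (+) points of Prrx2 and Snai1 nearly coincide.

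The 2 TWIST genes differed in how they moved. Twist1, on chromosome 12 from 33957671 to 33959829, had 127.5 RPKM in MEF, 79.7 in Dox (-) and 89.9 in Dox (+). MEF was the highest, and the knock-in libraries were close to each other. On its 660-base second exon, which is all untranslated, the 3788 reads of MEF, 2367 of Dox (-) and 2609 of Dox (+) gave a Dox (+) to Dox (-) ratio of 1.13 (95% counting interval 1.07 to 1.19), a direction that turns when the libraries are rescaled (log2 fold change -0.11 by the median ratio). Dox (-) was 1.60-fold lower than MEF (1.52 to 1.69).

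Twist2, on chromosome 1 from 91801461 to 91848028, had 8.85 RPKM in MEF, 56.8 in Dox (-) and 111 in Dox (+). The libraries were well separated, in that order. On its second exon, of 640 bases, there were 255 reads in MEF, 1637 in Dox (-) and 3134 in Dox (+). Dox (+) was 1.96-fold above Dox (-) (1.84 to 2.08), just short of 2-fold, and Dox (-) was 6.42-fold above MEF (5.62 to 7.35). Its coding exon had 1.23, 9.51 and 26.8 RPKM in the same order. That exon overlaps the antisense gene Gm29100, and as no source says that strand was used in counting, reads of the 2 genes cannot be told apart there, while no annotated gene overlaps the second exon.

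The balance of this pair, whose compared exons are of nearly equal length, therefore differed among the libraries. Per length, Twist1 was 14.4-fold above Twist2 in MEF and 1.40-fold above it in Dox (-), and Twist2 was 1.24-fold above Twist1 in Dox (+). With reads summed over the exons of each gene the values were 11.9-fold, 1.19-fold and 1.50-fold, in the same directions.

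Prrx1, on the minus strand of chromosome 1 from 163245119 to 163313710, encodes a homeobox factor of limb and craniofacial mesenchyme. Its highest exon had 59.8 RPKM in MEF, 336 in Dox (-) and 474 in Dox (+). This is the 39-base exon printed above, with 105, 590 and 814 reads. The 46-base exon, 1275 bases away, held 105, 588 and 814 reads, almost the same numbers. Both lie within the intron that follows the first coding exon of the protein-coding transcripts, and whether reads spliced across that intron were counted on the exons inside it was not tested.

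The other Prrx1 exons place the knock-in libraries closer together. The 5′ exon of 1316 bases, which holds the start codon, had 12.7 RPKM in MEF, 104 in Dox (-) and 115 in Dox (+). The 3′ exon of 3278 bases had 45.8, 193 and 171 RPKM, and a shorter form of it, of 820 bases, had 52.4, 263 and 288. An alternative last exon of 5077 bases had 10.8, 50.2 and 39.6 RPKM. Of the 9 listed exons, several of which overlap, 6 had a ratio of Dox (+) to Dox (-) over 1 and 3 under 1, from 0.789 to 1.42. Summed over exons that do not overlap, Prrx1 had 23.2 RPKM in MEF, 108 in Dox (-) and 97.6 in Dox (+), so that the direction between Dox (-) and Dox (+) is the opposite of that on the highest exon. Against MEF all 9 exons were higher in Dox (-), by 4.22-fold to 8.19-fold.

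Prrx2, the paralogue of Prrx1 on chromosome 2 from 30834972 to 30881251, had 184 RPKM in MEF, 255 in Dox (-) and 248 in Dox (+). The level of MEF comes from a 428-base form of the last exon, and the levels of Dox (-) and Dox (+) from a 179-base coding exon. On that 179-base exon the reads were 1453, 2055 and 1957. There Dox (+) and Dox (-) did not differ beyond counting error (ratio 0.974, 0.915 to 1.04), and Dox (-) was 1.41-fold above MEF (1.32 to 1.51). The ratio of Dox (+) to Dox (-) was 1.10 on the 182-base exon before it. On the 457-base last exon it was 0.848, with 4175 reads in Dox (-) and 3462 in Dox (+). The ratio for Prrx2 thus depends on the exon that is read. Both annotated first exons were nearly empty, with 0, 10 and 1 reads on the one and 8, 8 and 16 on the other, although the second exon had 618, 963 and 1040. Summed over exons, Prrx2 was 3.11-fold above Prrx1 in MEF, and Prrx1 was 1.16-fold above Prrx2 in Dox (-) and 1.14-fold above it in Dox (+).

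Snai1, an EMT repressor on chromosome 2 from 167538195 to 167542814, had 35.3 RPKM in MEF, 67.8 in Dox (-) and 67.0 in Dox (+). On its last exon, of 916 bases, the reads were 1455, 2794 and 2700, and the ratio of Dox (+) to Dox (-) was 0.988 (0.937 to 1.04), within counting error, while Dox (-) was 1.92-fold above MEF (1.80 to 2.05). The middle exon, which is all coding, had 10.6, 26.4 and 32.6 RPKM.

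Zeb1, also an EMT repressor, on chromosome 18 from 5591860 to 5775467, had 77.8 RPKM in MEF, 88.1 in Dox (-) and 133 in Dox (+). These levels come from a different exon in each library. On the 106-base exon that is highest in Dox (-), they were 63.5, 88.1 and 129 RPKM. All 12 exons of Zeb1 were higher in Dox (+) than in Dox (-), but not evenly. The ratio was 2.57 on the first exon, with 87 reads in Dox (-) and 219 in Dox (+), 1.70 on an alternative first exon, 1.39 on the large coding exon of 1805 bases and 1.26 on the last exon, with 4223 and 5191 reads. Between Dox (-) and MEF, 11 exons were higher in Dox (-), by up to 2.30-fold, and the last exon was lower, with 30.9 RPKM against 35.0. The direction for Zeb1 in that comparison thus depends on the exon that is read.

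**Figure D2:**
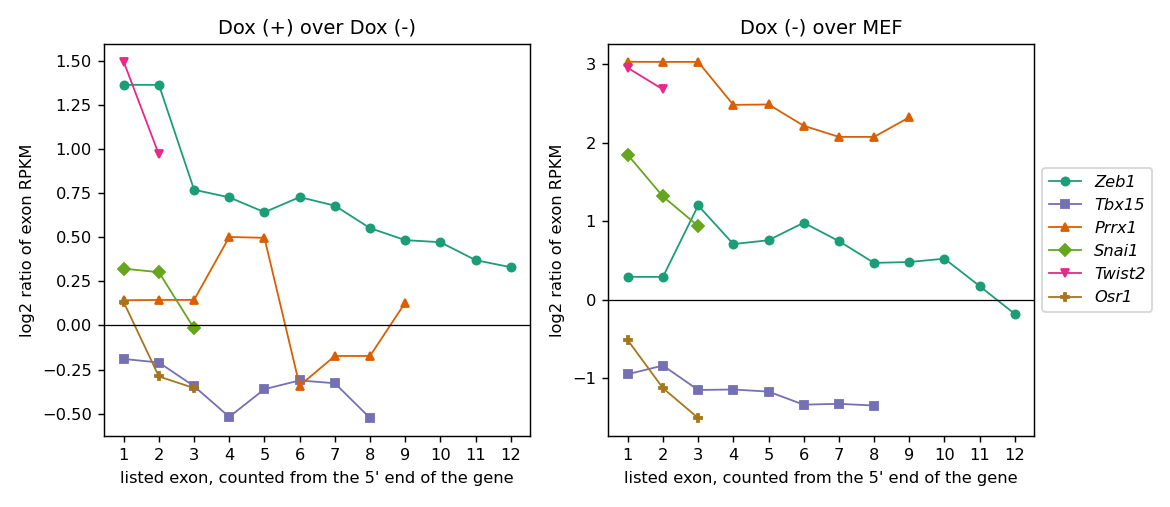
Log2 ratio of exon RPKM, Dox (+) over Dox (-) on the left and Dox (-) over MEF on the right, for each listed exon of 6 members, counted from the 5′ end of the gene; 1 library per condition, and some exons of Prrx1 and Zeb1 overlap. Zeb1 declines from 2.57-fold on its first exon to 1.26-fold on its last on the left, Snai1, Osr1 and Tbx15 also have their highest ratio there on the first exon, and Prrx1 lies on both sides of 0 on the left.

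This slope along the gene was not particular to the members. Over the 7560 genes with at least 20 reads on both end exons in both libraries, the log2 ratio of Dox (+) to Dox (-) was higher on the exon nearest the 5′ end than on that nearest the 3′ end by a median of 0.44 (quartiles 0.16 and 0.74), and the sign was positive in 86.1% of them. Between Dox (-) and MEF the median was 0.26 (-0.02 and 0.61) over 6630 genes, positive in 72.4%. Relative to the 5′ ends, the 3′ ends therefore held most reads in MEF and fewest in Dox (+). All 7 members with enough reads were positive in the first comparison, from 0.32 in Prrx1 to 1.03 in Zeb1, and all 6 in the second, from 0.27 in Twist2 to 0.99 in Osr1. The part of RNA quality or library preparation in this was not tested. For Prrx1, Snai1 and Osr1 the 2 ends lay on different sides of a ratio of 1 between Dox (+) and Dox (-).

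**Figure D3:**
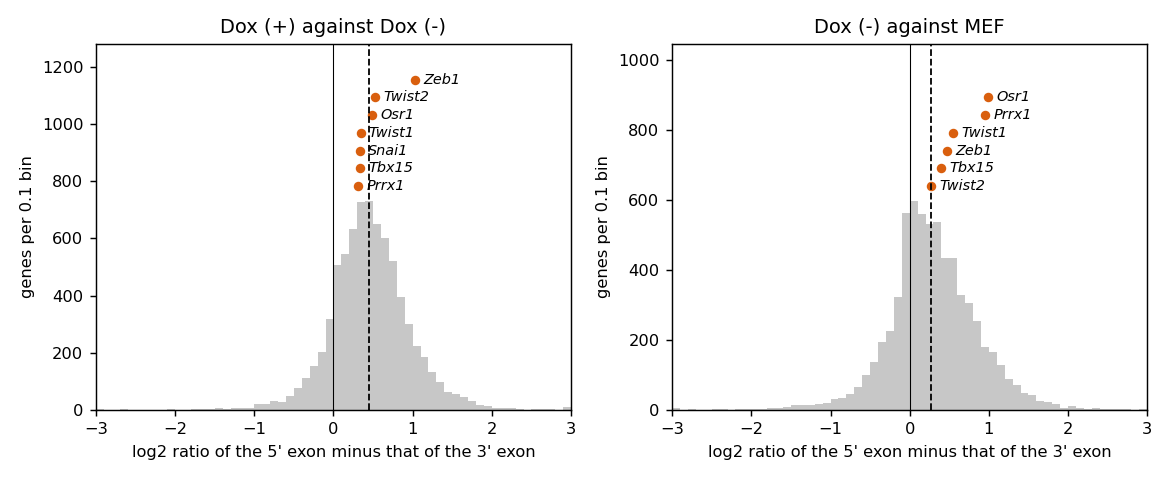
Number of genes by the difference between the log2 ratio on the exon nearest the 5′ end and that on the exon nearest the 3′ end, in bins of 0.1, for Dox (+) against Dox (-) over 7560 genes and Dox (-) against MEF over 6630 genes; the few values beyond 3 are put in the end bins. The dashed lines mark the medians, 0.44 and 0.26, and the named points, whose height carries no value, are the members, all to the right of 0.

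Of the factors that mark subsets of mesenchyme, Tbx15 and Osr1 were highest in MEF. Tbx15, a T-box factor of limb and dermal mesenchyme on chromosome 3 from 99240381 to 99354259, had 309 RPKM in MEF, 122 in Dox (-) and 98.6 in Dox (+). All 8 exons were lower in Dox (-) than in MEF and lower again in Dox (+). On the 65-base exon with the highest level the reads were 904, 358 and 282, so that Dox (-) was 2.53-fold below MEF (2.23 to 2.86) and Dox (+) was 1.24-fold below Dox (-) (1.06 to 1.46). On the last exon, of 2421 bases, the levels were 117, 45.8 and 31.8 RPKM.

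Osr1, a zinc finger factor of the intermediate mesoderm and of connective tissue on chromosome 12 from 9570116 to 9581500, had 39.9 RPKM in MEF, 18.3 in Dox (-) and 15.0 in Dox (+). On its 699-base exon, nearly all of it coding, the reads were 1255, 575 and 460. Dox (-) was 2.18-fold below MEF (1.98 to 2.41) and Dox (+) was 1.22-fold below Dox (-) (1.08 to 1.38), although the small 5′ exon was 1.10-fold higher in Dox (+).

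The remaining members, Tcf21 and Meox2, were below 10 RPKM in every library and were not tested. Tcf21, a factor of visceral mesenchyme on chromosome 10 from 22817281 to 22820174, had 0 reads in MEF, 31 in Dox (-) and 4 in Dox (+) on its highest exon, or 0, 0.955 and 0.135 RPKM. With the floor of 3 reads put in place of the 0 reads of MEF, Dox (-) was 10.3-fold above MEF. The 95% counting interval of the ratio on the reads themselves begins at 7.91. Dox (-) was 7.58-fold above Dox (+) (2.68 to 29.5). Meox2, a homeobox factor of somite derivatives on chromosome 12 from 37108540 to 37179534, had 2, 25 and 9 reads, or 0.257, 3.21 and 1.18 RPKM. Dox (-) was 12.5-fold above MEF (3.12 to 109) and 2.72-fold above Dox (+) (1.23 to 6.61), and both other exons of Meox2 had the same order of levels. In both genes Dox (-) was the highest, as for the macrophage markers given above, whose part in these few reads was not tested.

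The untreated knock-in MEFs were compared with wild-type MEFs to see how far the starting culture itself differed. Of the 8 members tested, 2 were called higher in Dox (-), Twist2 and Prrx1, against 8.26% of all 13234 genes tested, and 0 were called lower, against 1.21%. At 2-fold the same 2 were higher, against 17.3% of all genes, and 2 were lower, Tbx15 and Osr1, against 7.93%. The median log2 fold change of the 10 members was 0.70, and that of all genes was 0.06. Over the 8 members tested it was 0.32, and over all genes tested 0.01. The macrophage markers also separate these libraries, with 9 of 9 more than 4-fold higher in Dox (-). Their part in the levels of the members was not tested.

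By their levels on the highest exon, the members stood in different orders in the 3 libraries. In MEF the order was Tbx15, Prrx2, Twist1, Zeb1, Prrx1, Osr1, Snai1 and Twist2, from 309 to 8.85 RPKM. In Dox (-) it was Prrx1, Prrx2, Tbx15, Zeb1, Twist1, Snai1, Twist2 and Osr1, from 336 to 18.3 RPKM. In Dox (+) Prrx1 and Prrx2 were again highest, followed by Zeb1, Twist2, Tbx15, Twist1, Snai1 and Osr1, from 474 to 15.0 RPKM. Neighbours such as Osr1 and Snai1 in MEF, Zeb1 and Twist1 in Dox (-), and Tbx15 and Twist1 in Dox (+) lay within 1.5-fold of each other, less than the range among the exons of a single member, and their order is not resolved. Summed over exons, the order changed beyond such neighbours. Snai1 then had 47.4 RPKM in Dox (-) against 46.9 for Tbx15, and 49.1 in Dox (+) against 34.0. In MEF Prrx1, at 23.2 RPKM, was then below Osr1, at 29.3. Tbx15 stayed highest in MEF, and Prrx1 and then Prrx2 in both knock-in libraries. By both measures Meox2 and then Tcf21 were last in each library.

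A list of 9 EMT factors beside the members was read in the same way. Of the 5 tested between Dox (+) and Dox (-), 0 were called in either direction, against 1.64% of all genes higher and 5.41% lower. For 5 genes a count of 0 does not set them apart. Snai2, the SNAI protein of neural crest and melanocytes, had 65.3 RPKM in MEF, 44.1 in Dox (-) and 25.5 in Dox (+), and so was lowest in the induced culture. Zeb2, the ZEB protein of melanocytes, which macrophages also express, had 16.7, 110 and 160 RPKM. Tcf3, which encodes an E protein partner of the TWIST factors, had 874, 859 and 1186 RPKM. Of the 6 tested between Dox (-) and MEF, Zeb2 alone was called, 6.58-fold higher in Dox (-). Of all genes, 8.26% were called higher and 1.21% lower in that comparison. Foxc2 was 1.32-fold lower in Dox (-), at 8.44 RPKM against 11.2.

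Within both families the balance differed among the cultures. Per length on the highest exons, Snai2 was 1.85-fold above Snai1 in MEF, and Snai1 was 1.54-fold above Snai2 in Dox (-) and 2.63-fold above it in Dox (+). Zeb1 was 4.66-fold above Zeb2 in MEF. In the knock-in cultures this depended on the measure, since Zeb2 was 1.25-fold above Zeb1 in Dox (-) and 1.20-fold above it in Dox (+) on the highest exons, while summed over exons Zeb1 was 1.94-fold and 1.87-fold above Zeb2.

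A wider list held 40 other mesenchymal factors, of which 17 were above 10 RPKM in MEF, 24 in Dox (-) and 20 in Dox (+). Between Dox (+) and Dox (-), 24 were tested, 0 were called higher and 1 lower, against the 1.64% and 5.41% of all genes. That was Meox1, the relative of Meox2 in somites, with 19.2 RPKM in MEF, 17.7 in Dox (-) and 2.32 in Dox (+), and 152, 140 and 18 reads on 1 exon. Summed over exons Meox1 had 6.92, 7.14 and 0.622 RPKM in the same order. That is below 10 RPKM in every library, so Meox1 is not tested or called by that measure. Sox9, the factor of cartilage, was 2.43-fold higher in Dox (+) when the highest exon of each library was taken, which is not the same exon in both. Summed over exons it had 8.70 RPKM in Dox (-) and 14.2 in Dox (+), a smaller difference. Tead2, a partner of YAP, was 1.97-fold higher (151 to 298 RPKM). The median log2 fold change of those tested was -0.05.

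Between Dox (-) and MEF, 27 of these factors were tested, 10 were called higher (Tbx2, Tbx3, Msx2, Shox2, Runx1, Ebf1, Ebf2, Wt1, Tead1 and Barx1) and 2 lower, against the 8.26% and 1.21% of all genes. Summed over exons, Tbx2, Tbx3, Ebf2, Wt1 and Barx1 were below 10 RPKM in all 3 libraries, Tead1 had 33.3 RPKM in MEF and 61.8 in Dox (-), and Scx had 62.4 and 17.4, so none of these 7 is called by that measure. Runx1 and Ebf1 are also factors of blood cells, and the part of other cell types in their levels was not tested. Wt1, a factor of mesothelium and urogenital mesenchyme, had 0.517 RPKM in MEF and 31.0 in Dox (-), from 1 and 60 reads on 1 exon. Barx1, a homeobox factor of stomach and facial mesenchyme, had 0 and 62 reads, and Shox2, a factor of proximal limb, had 1.59 and 26.9 RPKM from 15 and 253 reads. The 2 called lower were Foxd1, with 31.1 RPKM in MEF and 5.88 in Dox (-), and Scx, the tendon factor, with 136 and 31.2. In Dox (+) these factors were near their Dox (-) levels for Wt1 (31.2 RPKM), Barx1 (19.0) and Shox2 (26.5). Of the rest, Tbx2, Msx2, Runx1, Ebf2 and Foxd1 were lower in Dox (+) than in Dox (-), and Tbx3, Ebf1, Tead1 and Scx were higher. Msx2 had 16.1 RPKM in Dox (-) and 7.99 in Dox (+), Runx1 72.2 and 41.3, and Scx 31.2 and 44.1.

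**Figure D4:**
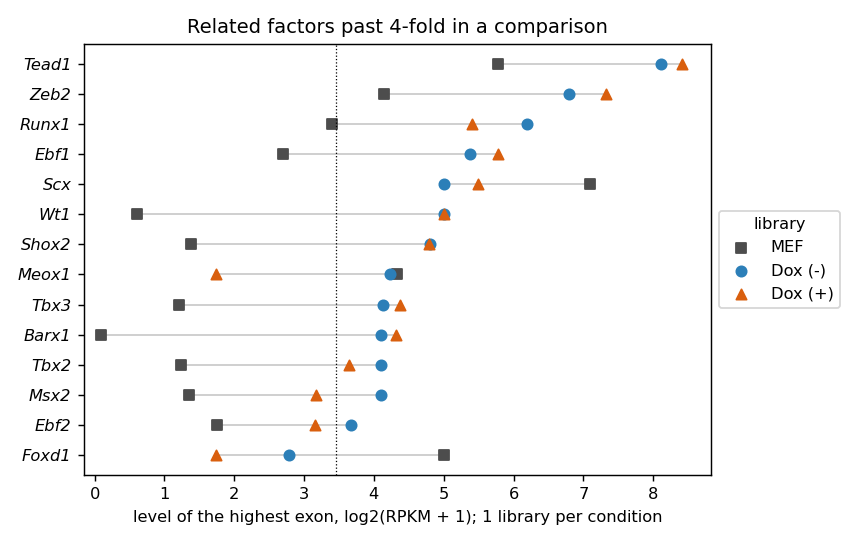
Level of the highest exon, as log2(RPKM + 1), in the MEF, Dox (-) and Dox (+) libraries, for the 14 related factors that were more than 4-fold apart in a comparison, 1 point per library; the dotted line is at 10 RPKM. All but Meox1 were chosen by a call between Dox (-) and MEF, so the distance between those libraries follows from the choice and is not a finding. The place of Dox (+) was not part of that choice, and MEF lies apart from it too for most, being the lowest library for 11 of the 14. Meox1 was chosen by its call between Dox (+) and Dox (-), so that Dox (+) lies apart there by choice.

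Among 15 epithelial genes that SNAI, ZEB and TWIST proteins are known to repress, at most 2 were above 10 RPKM in any library. Cdh1, which encodes E-cadherin, had 21.7 RPKM in MEF, 1.08 in Dox (-) and 0.697 in Dox (+), and the exon highest in MEF held 159, 4 and 5 reads. It was the only one called between Dox (-) and MEF. Esrp2, a splicing factor of epithelia, had 15.8, 7.31 and 6.87 RPKM. Crb3, a polarity protein, had 2.72, 4.99 and 17.2 RPKM and was the only one tested between Dox (+) and Dox (-), 3.44-fold higher in Dox (+). These levels come from 6, 11 and 37 reads on a single exon. Summed over exons Crb3 had 0.099, 0.182 and 0.625 RPKM, so it is not tested by that measure.

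Of the 14 fibroblast markers, 5 were called lower in Dox (+) than in Dox (-) (Col1a1, Col1a2, Col3a1, Lum and Postn) and 0 higher, against the 5.41% and 1.64% of all genes. The other 9 did not pass 4-fold. Of these, Thy1 and Vim were higher in Dox (+), with ratios of 1.79 and 1.98, and all the rest were lower. At 2-fold, 8 of the 14 were lower and 0 higher, against 11.1% and 10.8% of all genes. The median log2 fold change of the 14 was -1.27. Col3a1 had 3320 RPKM in MEF, 10487 in Dox (-) and 847 in Dox (+), Postn, a matrix protein of connective tissue, had 1524, 7703 and 1400, and Col1a1, downstream of which the Mitf transgene lies, had 4958, 12562 and 2301. For these 3 genes Dox (-) was the high library, and Dox (+) was below MEF on the highest exon. Summed over exons, Col3a1 and Col1a1 kept this order. Postn then had 522 RPKM in MEF and 647 in Dox (+), so that Dox (+) was above MEF.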

How the data were processed

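The authors aligned the RNA-seq reads (TruSeq kit) to mm10 with TopHat 2.0.10, counted reads on each annotated exon with bedtools, and deposited the exon levels as RPKM. Of 4 columns, 3 were assigned to libraries by name. The number left unused because its name matched no label was 1, so PMel and the 2 comparisons planned with it were not analysed here. Of 234718 exons, 228132 matched GENCODE M21 (mm10). Reads were recovered as RPKM times exon length times a whole-number divisor per library, and were whole for 41 of the 50 member exons. On the other 9 they were rounded. Intervals are exact at 95% (Poisson for a count, binomial for the ratio of 2 counts) and cover counting error only. The floor was 3 reads. No test was run, since there was 1 library per condition.

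The members, the gene lists and the alternatives were chosen with earlier results of these data known. All 10 members are named. From each further list up to 3 genes per comparison are named, those with the largest log2 fold change above 10 RPKM, as well as every gene called where few were. The 14 factors plotted were chosen by their calls. On simulated data for Dox (+) against Dox (-), all 200 genes changed 8-fold were called with the direction they were given, and 1 unchanged gene was called, of 12994 genes tested. These data were drawn from the Dox (-) levels with counting error only. They check the calculation and give no rate of false calls between real cultures. Python 3.11.15, pandas 2.3.3, NumPy 2.4.6, SciPy 1.17.1 and matplotlib 3.10.9 were used.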

Additional observations from a re-analysis of the deposited data

How the results depend on the processing

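No paired analysis was possible because each condition has 1 library. The numbers of members called were the same under other measures of gene level, exon lengths and scalings, apart from 2 called lower in Dox (-) than in MEF at 2-fold and 3 called higher above 1 RPKM, with Meox2 added. Read on the exon nearest the 5′ end, a choice made after seeing the data, 1 was called higher in Dox (-) than in MEF, and only 4 members were then above 10 RPKM. The median log2 fold change of the members for Dox (+) against Dox (-) was -0.31 after rescaling by the median ratio and -0.28 by the upper quartile. For Dox (-) against MEF it was 0.36 with a pseudocount of 5 and 0.23 on the exon nearest the 3′ end. For Dox (+) against Dox (-), Twist1, Prrx1, Snai1 and Osr1 changed direction under at least 1 alternative, over ranges of -0.11 to 0.48, -0.17 to 0.50, -0.30 to 0.27 and -0.54 to 0.11. For Dox (-) against MEF, only Zeb1 did, from -0.17 to 0.46. The cause was not tested. At these depths a few reads, as on Tcf21 and Meox2, limit any statement.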

Other observations

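For each member above 10 RPKM in at least 1 library, the gene with the most similar levels was found as the smallest distance in log2(RPKM + 1) over the 3 libraries, among 13586 genes. These were 0610010F05Rik for Twist1 (distance 0.05), Ern1 for Twist2 (0.37), Il4ra for Prrx1 (0.37), Gm6166 for Prrx2 (0.06), Abca3 for Snai1 (0.06), Dhx38 for Zeb1 (0.05), 1300002E11Rik for Osr1 (0.14) and Ptgis for Tbx15 (0.19). With 3 points per gene, distances of this size describe the levels and nothing more. Ern1 had 9.80, 53.6 and 88.2 RPKM in MEF, Dox (-) and Dox (+), and Ptgis, which encodes prostacyclin synthase, had 347, 119 and 93.0.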
